A study of Mus musculus with 9 samples.

Results

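The repressor gene Rest, the corepressor gene Rcor1 and 8 neuronal genes (Stmn2, Stmn3, Snap25, Syp, Tubb3, Nefl, Nefm and Gap43) were followed in mouse embryonic fibroblasts (MEFs) that lack pairs of histone H3 lysine 9 methyltransferases. These 10 genes were picked by symbol, through the Ensembl identifiers of the count table, out of 47937 genes. All 10 were present in the table. The neuronal genes were listed as silenced in fibroblasts, which held for 6 of the 8 in WT cells: Stmn2, Stmn3, Snap25, Syp, Nefl and Nefm lay under 0.5 CPM (counts scaled to the library total), while Tubb3 and Gap43 were clearly transcribed.

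REST, also called NRSF, is a zinc finger protein that binds a DNA element known as RE1 or NRSE in neuronal genes and keeps these genes off in cells outside the nervous system. It recruits corepressor complexes, among them CoREST, which is encoded by Rcor1 and carries the histone demethylase KDM1A and the deacetylases HDAC1 and HDAC2, and the SIN3 complex. G9a, which with its partner Glp places mono- and dimethylation on H3K9, is known to be recruited by REST as well, whereas Suv39h1 and Suv39h2 place H3K9 trimethylation in pericentric heterochromatin.

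The series holds RNA-seq of 9 libraries, 3 for each of 3 genotypes. WT denotes the parental MEF line, which carries a floxed Eset1 (Setdb1) allele that tamoxifen can delete and which served as wild type. In the S1S2 line both Suv39h genes, Suv39h1 and Suv39h2, are disrupted, and in the G9Gl line G9a (Ehmt2) and Glp (Ehmt1). Per the methods of the study, both mutants were derived from the parental line by CRISPR/Cas9 frameshifts in the catalytic domains and were isolated as clones without detectable target protein, so that genotype and clone cannot be told apart. The methods further describe adding back a construct for inducible Cre and puromycin resistance after the disruptions, with lines kept in puromycin. If this applies to these mutant lines, it cannot be told apart from genotype either. It was assumed that these methods describe the present libraries, and that Eset1 was intact in all of them. The methods call the 3 replicates of each line biological, and the labels do not say whether they were separate cultures, so the p-values measure the spread between libraries of a single line per genotype.

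Library totals ranged from 21319778 to 32157623 counts, with the S1S2 libraries the smallest. At this depth 3 counts, the floor used here, corresponded to 0.0923 to 0.141 CPM. Transcripts of the targeted genes followed the labels for Suv39h1 in S1S2 cells (log2 fold change -1.36) and for Ehmt2 and Ehmt1 in G9Gl cells (-1.20 and -1.04). Suv39h2 transcripts did not, being higher in S1S2 cells than in WT (0.70). A frameshift need not remove the transcript, so this is no direct test of the label.

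Markers of the labelled cell type were present throughout. All 10 fibroblast markers examined averaged at least 0.5 CPM in every genotype, although their summed level was 10479 to 11981 CPM in WT libraries, 7835 to 7914 CPM in S1S2 and 8398 to 9229 CPM in G9Gl. In S1S2 5 of the 10 fell, and in G9Gl 2 fell and 1 rose, beside 9.0% and 10.2% of all tested genes called in either direction, and whether these shifts bear on the neuronal genes was not tested. Of 9 neuron markers, 8 were at or under the floor in WT cells, 8 in S1S2 and 6 in G9Gl, with a summed level of 0.523 to 1.39, 0.230 to 0.329 and 0.979 to 1.40 CPM. Most of these sums came from a single gene, Map2, with means of 0.814, 0.244 and 0.915 CPM. The neuronal nuclear protein gene Rbfox3 and the GABA-synthesis gene Gad1 had no count in any library, and Dcx and Elavl4 had 1 count each in a single G9Gl library. Besides Map2, those above the floor in G9Gl were Syt1 (0.116 CPM, no count in WT or S1S2) and Gad2 (0.0672 CPM, against 0.0110 CPM in WT and no count in S1S2). Neither was tested. In bulk RNA, fewer expressing cells and less RNA per cell cannot be told apart.

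Set against their exon length, the 10 genes fell into an expressed and a near-silent class. In WT cells Rest stood highest at 20.8 ± 0.624 RPKM (reads relative to exon length and library total; SD, n = 3), above 84.4% of the tested genes, and was followed by Rcor1 at 15.3 ± 0.533, Tubb3 at 13.3 ± 0.401 and Gap43 at 6.21 ± 0.190 RPKM. Each of these neighbours in the WT order was separated from the next by more than the SD of its libraries. Syp reached 0.0445 ± 0.0322 RPKM, and Nefl, Stmn3 and Stmn2 lay between 0.00946 and 0.0161 RPKM, levels that did not differ beyond their spread. Snap25 and Nefm had no count in WT.

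The order changed in both mutants. In S1S2 cells Gap43 stood highest at 39.7 ± 0.847 RPKM, and Tubb3 (20.9 ± 1.34 RPKM) and Rest (20.5 ± 0.713 RPKM) did not differ beyond their spread. In G9Gl cells Rest led at 25.0 ± 0.942 RPKM, Rcor1 (13.2 ± 0.0925 RPKM) and Tubb3 (11.6 ± 2.15 RPKM) were not separated, Gap43 had 3.79 ± 0.370 RPKM, and Stmn2 followed at 0.455 ± 0.0147 RPKM. Nefl (0.113 ± 0.0657 RPKM) and Snap25 (0.0772 ± 0.0352 RPKM) were not separated from each other.

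**Figure D1:**
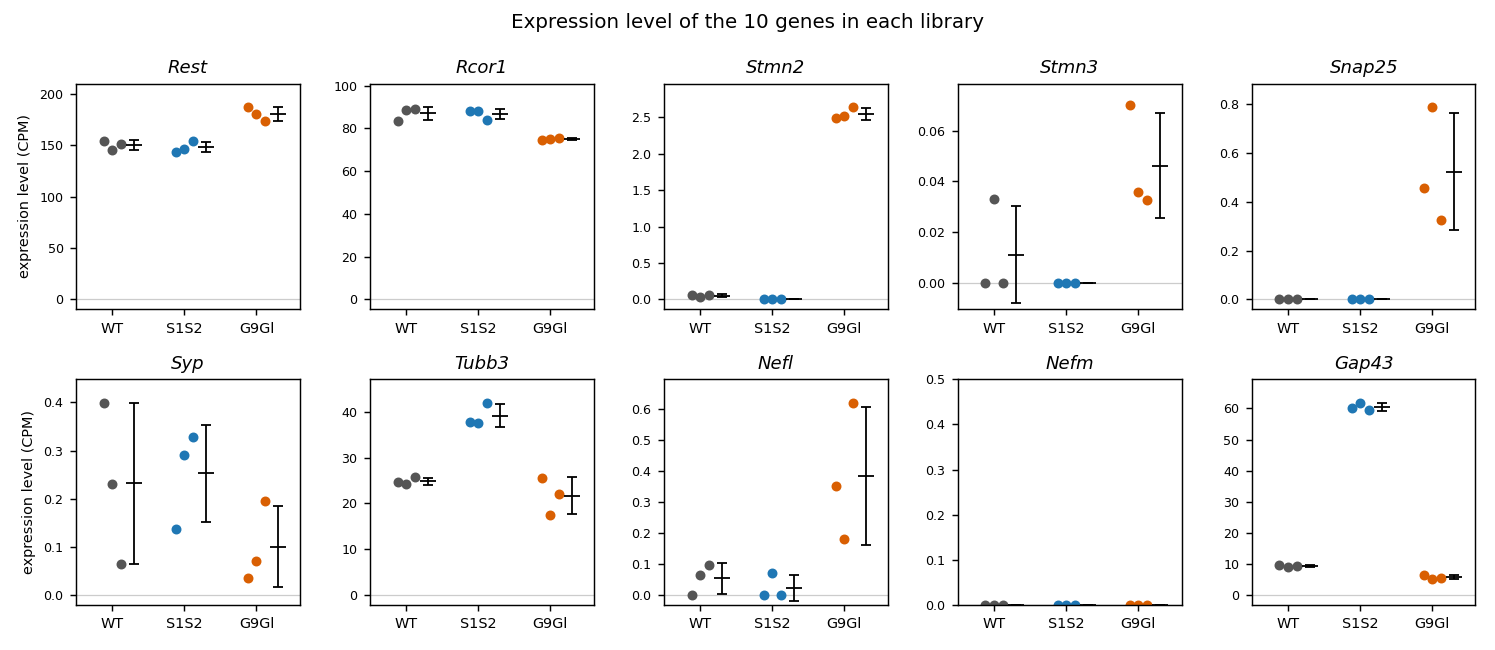
Expression level (CPM, vertical axes with a separate linear scale per gene) of the 10 genes in the 9 libraries, grouped by genotype on the horizontal axes. Coloured points are single libraries and the black bar beside them gives the mean and SD of 3; Gap43 stands out in S1S2, Stmn2, Snap25 and Nefl in G9Gl, and Nefm is at 0 throughout.

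Near zero was defined as a mean under 0.5 CPM, and not detected as at most 3 counts in each library of a genotype. By these limits 6 members were near zero in WT, 6 in S1S2 and 4 in G9Gl. Stmn3, Syp, Nefl and Nefm stayed under 0.5 CPM in all 3 genotypes. Stmn2 and Snap25 passed this limit only in G9Gl cells, Snap25 at 0.524 CPM and thus barely. Stmn3 and Nefm were not detected in any genotype. Because of these low values, 5 of the 10 members (Rest, Rcor1, Stmn2, Tubb3 and Gap43) passed the count filter and were tested.

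Rest itself (ENSMUSG00000029249, chromosome 5, 77265491 to 77286432 of GRCm38) was transcribed in every genotype, at a somewhat higher level in G9Gl cells. Its level was 154, 146 and 151 CPM in the WT libraries, 144, 147 and 154 CPM in S1S2, and 188, 181 and 174 CPM in G9Gl. The 3 G9Gl libraries lay above all others, and the WT and S1S2 libraries overlapped. The difference of G9Gl from WT was 0.27 on the log2 scale (SE 0.0437, adjusted p = 7.43e-05), a 1.20-fold higher level that stayed under the 2-fold limit for a call. Between S1S2 and WT the log2 difference was -0.02 with a 95% interval from -0.11 to 0.07 (adjusted p = 0.744).

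Rcor1 (ENSMUSG00000037896, chromosome 12, 111039351 to 111115901), the scaffold of the CoREST complex, was lowest in G9Gl cells. Its level was 83.6, 88.9 and 88.9 CPM in WT, 88.2, 88.2 and 83.9 CPM in S1S2, and 74.6, 75.2 and 75.7 CPM in G9Gl. The G9Gl values lay under all others without overlap. The log2 difference from WT was -0.21 (SE 0.0441, adjusted p = 6.84e-04), and from S1S2 it was -0.21 (adjusted p = 7.88e-04). Between S1S2 and WT the difference was -0.01 (adjusted p = 0.925). Rcor1 shares 53 exonic bases with the predicted gene Gm48632 on the same strand, so a small part of its counts is uncertain.

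Thus Rest and Rcor1 differed between genotypes by far less than 2-fold. The other genes of the REST corepressors stayed under 2-fold as well, up to 1.78-fold for Btrc between the mutants. All 19 further cofactor genes examined averaged at least 0.5 CPM in every genotype and all were tested. None was called (adjusted p of at most 0.01 and at least 2-fold) in any of the 3 comparisons by the quasi-likelihood test of edgeR, and DESeq2 called none either. At an unadjusted p under 0.05, 12 passed in S1S2 against WT, 13 in G9Gl against WT and 8 between the mutants, beside 54.6%, 52.4% and 57.8% of all tested genes. Without the fold limit, 9 of the 19 passed an adjusted p of 0.01 in S1S2 against WT and 10 in G9Gl against WT, with 6 lower in the former and 9 lower in the latter. The share of all tested genes that passed this p alone was 37.9% and 35.0%, respectively.

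Among the cofactor genes, both CoREST paralogs were reduced. Rcor3 had 45.2 ± 2.07 CPM in WT, 33.3 ± 0.616 in S1S2 and 26.7 ± 1.82 in G9Gl (SD, n = 3), a log2 difference of -0.76 in G9Gl against WT (adjusted p = 9.94e-09). Rcor2 had 51.3 ± 0.947, 33.8 ± 1.03 and 36.8 ± 0.252 CPM, a log2 difference of -0.60 in S1S2 against WT (adjusted p = 2.37e-08). Both lay lower in every mutant library than in every WT library. Btrc, which encodes the ubiquitin ligase adaptor that marks REST for degradation, was higher in S1S2 (log2 difference 0.54, adjusted p = 4.46e-07) and lower in G9Gl (-0.30, adjusted p = 4.19e-04). Usp7, a deubiquitinase gene, differed in the same directions (0.26 and -0.33). Kdm1a and Sin3a, central enzyme and scaffold of the corepressors, differed from WT by 0.09 or less on the log2 scale in either mutant (adjusted p between 0.108 and 0.541).

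**Figure D2:**
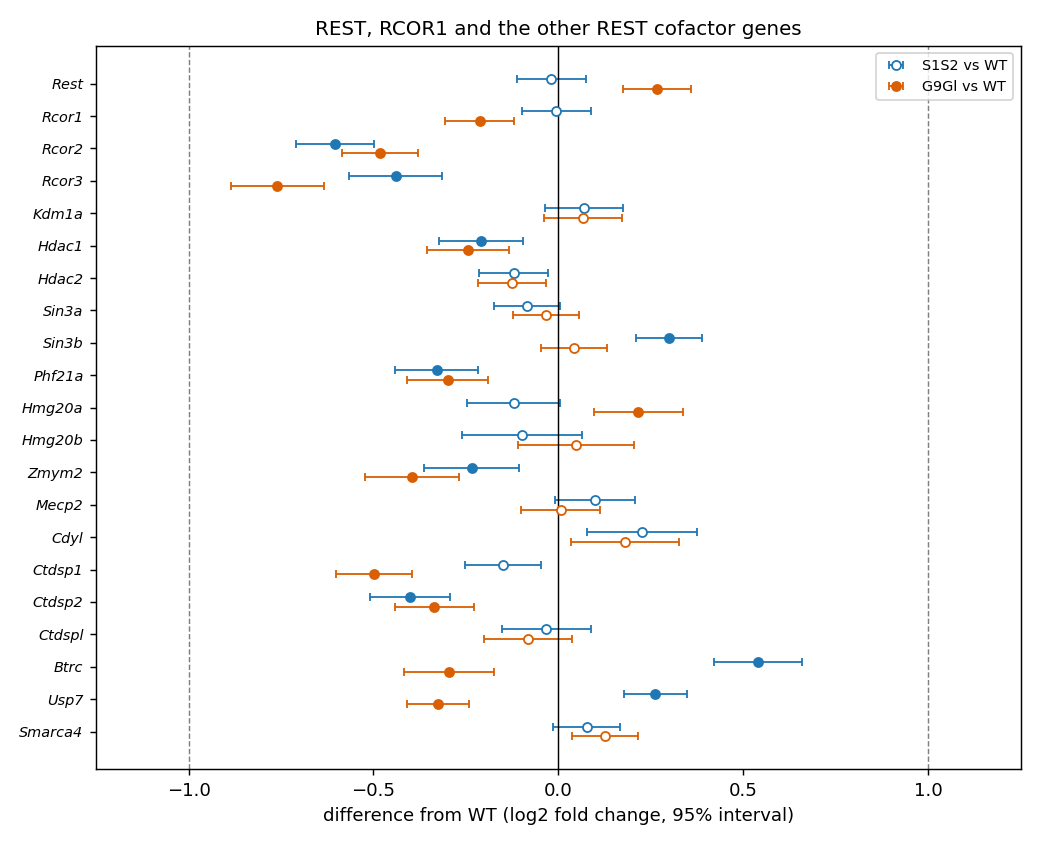
Difference from WT (horizontal axis, log2 fold change with 95% interval) of Rest, Rcor1 and the 19 further cofactor genes in S1S2 and G9Gl cells. Filled points have an adjusted p of at most 0.01 and open points do not, dashed lines mark 2-fold; no gene reaches them, and the values span -0.76 to 0.54.

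Gap43 (ENSMUSG00000047261, chromosome 16, 42248442 to 42340651) encodes a growth cone protein anchored to the inner membrane of axons. It was transcribed in WT at 9.78, 9.22 and 9.38 CPM. In S1S2 cells it had 60.2, 61.9 and 59.3 CPM, and in G9Gl cells 6.39, 5.28 and 5.65 CPM. The 3 genotypes did not overlap, with S1S2 far above and G9Gl below WT. The rise in S1S2 was 6.39-fold, or 2.68 on the log2 scale (SE 0.0673, adjusted p = 3.72e-15). In G9Gl cells the log2 difference from WT was -0.71 (SE 0.0828, adjusted p = 1.50e-06), under the 2-fold limit. The mutants differed from each other by -3.39 (G9Gl against S1S2, adjusted p = 1.78e-16), and this was the largest difference among the members that were detected in both mutants.

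Tubb3 (ENSMUSG00000062380, chromosome 8, 123411424 to 123422015), the neuronal beta-tubulin, likewise was highest in S1S2 cells. Its level was 24.6, 24.2 and 25.7 CPM in WT, 37.7, 37.6 and 42.0 CPM in S1S2, and 25.4, 17.5 and 22.2 CPM in G9Gl. The S1S2 libraries lay above all others, whereas WT and G9Gl overlapped and G9Gl varied most. Tubb3 was higher in S1S2 than in WT by 0.65 on the log2 scale (SE 0.0941, adjusted p = 1.89e-05), a 1.57-fold difference that was not called. The difference of G9Gl from WT was -0.20 with a 95% interval from -0.40 to 0.01 (adjusted p = 0.111). Without G9Gl replicate 1 it was -0.32 (adjusted p = 0.00701), still under 2-fold, and without G9Gl replicate 2 it was -0.06 (adjusted p = 0.546). No 75-base stretch of Tubb3 transcripts occurs in another annotated gene, nor does one of Gap43, so the beta-tubulin paralogs share no such reads with it.

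Stmn2 (ENSMUSG00000027500, chromosome 3, 8509360 to 8561606) encodes a microtubule-destabilizing protein of growing axons, also known as SCG10 and one of the first genes in which REST repression was described. It was not detected in WT or S1S2 and was transcribed in all G9Gl libraries. It had 2, 1 and 2 counts in WT, 0, 0 and 0 in S1S2, and 71, 70 and 81 in G9Gl. In CPM the G9Gl level was 2.49, 2.51 and 2.64, a tight range far from the other libraries. The level in G9Gl was 47.9 times that in WT, with a 95% counting interval from 20.2 to 149, and it was at least 18.1-fold higher than in S1S2 cells, a bound set by 3 counts per library. The test called both differences (adjusted p = 4.85e-09 against WT and 3.52e-09 against S1S2). Between S1S2 and WT no fold is given, as neither exceeded the floor. Stmn2 passed the count filter through its G9Gl libraries alone, so that being tested already required a high level there. Only 0.25% of its 75-base stretches occur in other genes.

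Snap25 (ENSMUSG00000027273, chromosome 2, 136713453 to 136782428), a SNARE protein gene of synaptic vesicle fusion, had no count in any WT or S1S2 library. The G9Gl libraries had 13, 22 and 10 counts. This corresponded to 0.456, 0.790 and 0.326 CPM, at least 5.29-fold higher than in WT and at least 3.72-fold higher than in S1S2. Snap25 reached the minimum of the count filter, 0.352 CPM before scaling, in 2 G9Gl libraries where 3 were needed, and it was therefore not tested. In the fit without a filter it was called in G9Gl against WT (adjusted p = 6.05e-09) and against S1S2 (adjusted p = 1.01e-07), and DESeq2 called it in both comparisons.

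Nefl (ENSMUSG00000022055, chromosome 14, 68083863 to 68089095), the light neurofilament subunit, had 0, 2 and 3 counts in WT, 0, 2 and 0 in S1S2, and 10, 5 and 19 in G9Gl. The G9Gl libraries lay above all others but varied widely among themselves. Their mean level was 7.33 times that of WT (95% counting interval 2.85 to 24.0) and 13.8 times that of S1S2 (3.53 to 118). The ratio to S1S2 is uncertain because all S1S2 counts came from replicate 2. Nefl was left out by the filter, and without a filter it was called in G9Gl against WT (adjusted p = 9.55e-04) and against S1S2 (adjusted p = 2.53e-04). DESeq2 did not call it.

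Nefm (ENSMUSG00000022054, chromosome 14, 68082590 to 68124846), the medium neurofilament subunit, lies next to Nefl on the other strand. It had no count in any of the 9 libraries, at a floor of 0.0923 to 0.141 CPM. The annotated exons of Nefl and Nefm overlap by 1108 bases, and whether strand was used in counting is not stated, so that the low counts of Nefl are uncertain in their assignment.

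Syp (ENSMUSG00000031144, chromosome X, 7638471 to 7653256) encodes synaptophysin, a membrane protein of synaptic vesicles. It had 13, 7 and 2 counts in WT, 3, 8 and 7 in S1S2, and 1, 2 and 6 in G9Gl. The genotypes overlapped, and the level was near zero throughout at 0.232 ± 0.168, 0.253 ± 0.101 and 0.101 ± 0.0842 CPM (SD, n = 3). In the fit without a filter no comparison passed (adjusted p between 0.179 and 0.980). The antisense gene Gm14703 covers 875 exonic bases of Syp, and its reads could be counted for Syp.

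Stmn3 (ENSMUSG00000027581, chromosome 2, 181306459 to 181314500), a further stathmin of neurons, had 0, 1 and 0 counts in WT, 0, 0 and 0 in S1S2, and 2, 1 and 1 in G9Gl. At most 2 counts per library are under the floor, so that a difference was not detectable at this depth. Thus Stmn2 and Stmn3, members of 1 family, had unlike levels in G9Gl cells, 2.55 ± 0.0821 and 0.0462 ± 0.0208 CPM, respectively.

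Among the tested members, 1 of 5 was called in S1S2 against WT (Gap43, higher), 1 of 5 in G9Gl against WT (Stmn2, higher) and 2 of 5 in G9Gl against S1S2 (Stmn2 higher, Gap43 lower). Over all 15540 tested genes the called share was 9.0%, 10.2% and 13.1% in these comparisons. With 5 genes, none of the 3 counts can be set apart from these shares. Without Stmn2, which was tested through its G9Gl libraries alone, both G9Gl counts drop, to 0 of 4 and 1 of 4. The share of all tested genes called higher was 4.66%, 6.77% and 7.97%. By the adjusted p alone 2, 4 and 5 of the 5 members passed, against 37.9%, 35.0% and 42.6% of all genes. The 3 comparisons share libraries and are not independent.

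To place the members among other genes known to be repressed by REST, 21 further target genes were examined, which were chosen from general knowledge and with earlier results of these data known. In WT cells 14 of them lay under 0.5 CPM, in S1S2 cells 13 and in G9Gl cells 12. Syt4, Scg3, Slc18a3 and Calb1 had no count in any library. In total 11 of the 21 were tested, Scn2a and Celsr3 through their G9Gl libraries alone and Vgf through its G9Gl libraries and 2 of S1S2. In G9Gl against WT, 6 genes were called and all rose, namely Celsr3, Scn2a, L1cam, Syn1, Rundc3a and Vgf. Of the 8 that did not depend on G9Gl libraries to be tested, 3 were called, beside 6.77% of all tested genes called higher. In S1S2 against WT, L1cam and Vgf were called, both higher (4.66% of all genes). In G9Gl against S1S2, 6 were called, all higher, and 4 of the same 8 (7.97% of all genes). As these genes were chosen with results known, nothing is read from the shares.

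Of the 6 called genes, the highest level in G9Gl cells was that of L1cam, a cell adhesion molecule of axons. It had 34, 33 and 17 counts in WT, 52, 64 and 41 in S1S2, and 559, 558 and 642 in G9Gl. The genotypes did not overlap, with intermediate values in S1S2. Against WT it rose by 4.49 on the log2 scale in G9Gl (SE 0.152, adjusted p = 1.15e-13). Its rise in S1S2 was 1.31 (SE 0.209, adjusted p = 5.57e-05). Syn1, the synaptic vesicle protein synapsin, had 11, 18 and 17 counts in WT, 23, 21 and 16 in S1S2, and 170, 170 and 240 in G9Gl, a rise of 3.75 on the log2 scale in G9Gl (SE 0.213, adjusted p = 1.40e-10). Rundc3a, which encodes a neuronal protein that binds the GTPase RAP2, rose by 3.49 (SE 0.194, adjusted p = 1.04e-10), from 15, 20 and 14 to 193, 153 and 168 counts. In S1S2 cells the fitted level of Syn1 was 1.73-fold and of Rundc3a 1.54-fold that of WT, without overlap of the libraries in CPM, but neither was called (adjusted p = 0.0404 and 0.0707).

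Celsr3, an atypical cadherin needed for axon guidance, was not detected in WT (0, 1 and 1 counts) or S1S2 (0, 3 and 1) and had 48, 37 and 47 counts in G9Gl. This was 71.2 times the WT level (95% counting interval 19.3 to 594), with an adjusted p of 6.72e-08. Scn2a, a voltage-gated sodium channel, had 1, 1 and 7 counts in WT, 4, 3 and 4 in S1S2, and 78, 81 and 65 in G9Gl, a rise of 4.69 on the log2 scale (SE 0.400, adjusted p = 3.13e-08). The fold of Scn2a against WT is uncertain because 1 WT library carried 7 of the 9 WT counts. Of its 75-base stretches, 2.80% occur in the paralogs Scn1a, Scn3a and Scn9a. Vgf, a secreted neuropeptide precursor, was the weakest with 6, 7 and 6 counts in WT, 18, 21 and 5 in S1S2, and 20, 16 and 32 in G9Gl. Its log2 fold change was 1.92 in G9Gl (adjusted p = 0.00155) and 1.59 in S1S2 (adjusted p = 0.00952). The S1S2 call of Vgf was lost with DESeq2, with the replicate block and without any single WT library or S1S2 replicate 1 or 2 (adjusted p from 0.0142 to 0.0605 in these fits). The G9Gl call was lost without G9Gl replicate 3 (1.64, adjusted p = 0.0146).

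Not all targets were called. The glutamate receptor gene Grin1 had 13, 14 and 20 counts in WT against 7, 0 and 2 in S1S2 and 3, 2 and 7 in G9Gl, lower in both mutants without being called (adjusted p = 0.0171 and 0.0158). It passed the count filter through its WT libraries alone, so that being tested required a high level there. In the fit without a filter it was called in both (-1.94 in S1S2 and -1.84 in G9Gl). It was also called in S1S2 without S1S2 replicate 1 (-3.47, adjusted p = 0.00269) and in G9Gl with only the compared libraries (-1.83, adjusted p = 0.00512). Bdnf, a neurotrophin gene with fibroblast expression, had 27.3 ± 0.816 CPM in WT and 40.3 ± 2.10 CPM in G9Gl, a log2 difference of 0.56 (adjusted p = 6.35e-07) under the 2-fold limit, and was higher in S1S2 too (0.31, adjusted p = 4.47e-04). Mapk8ip1, a scaffold of JNK signalling, was likewise higher in both mutants, by 0.27 in G9Gl (adjusted p = 0.00119) and 0.32 in S1S2 (adjusted p = 3.09e-04). Chrm4, a muscarinic receptor gene, had 9.46 ± 0.563, 5.23 ± 0.864 and 13.3 ± 0.660 CPM in WT, S1S2 and G9Gl. It was higher in G9Gl than in WT by 0.49 (adjusted p = 5.87e-04), lower in S1S2 (-0.86, adjusted p = 7.75e-06), and was called between the mutants (1.35 on the log2 scale, adjusted p = 1.52e-08). The chromogranin genes Chga and Chgb were not detected in any genotype.

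**Figure D3:**
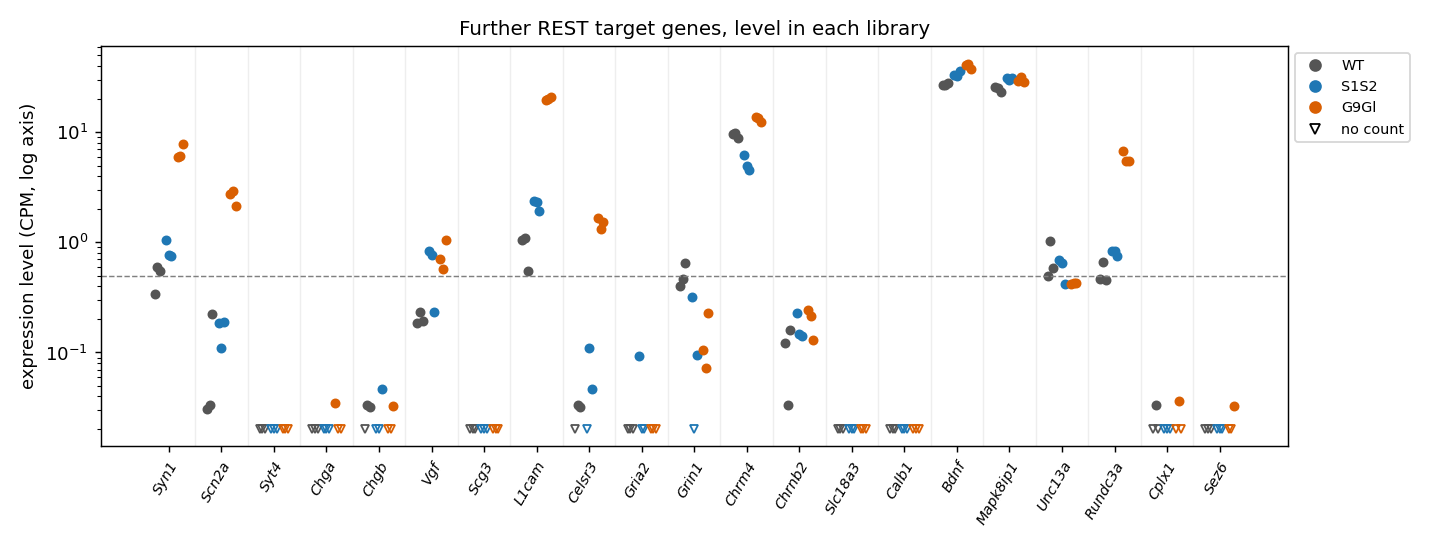
Expression level (CPM, logarithmic vertical axis) of the 21 further REST target genes in each of the 9 libraries, coloured by genotype. Open triangles mark libraries without a count, the dashed line marks 0.5 CPM; Syn1, Scn2a, L1cam, Celsr3 and Rundc3a are highest in the 3 G9Gl libraries, while Syt4, Scg3, Slc18a3 and Calb1 are at 0 in all.

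The RE1 consensus, 17 bases with 14 fixed positions, was searched on both strands in the windows at hand, with up to 1 mismatch allowed. Promoter windows of 300 bases (RefSeq, GRCm38.p6) existed for 4 members (Stmn3, Tubb3, Rcor1 and Syp), and none held a match. Of all 27025 genes with such a window, 1.15% held a match and 0.0777% an exact one. Among 15 further targets with a window, Gria2 (exact), Celsr3 and Syn1 held a match. The 2 promoters of genes that rose in G9Gl cells are shown, on the strand of the gene, with the match in capitals. The Celsr3 window is chr9:108825795-108826094 and the Syn1 window chrX:20920869-20921168.
Celsr3: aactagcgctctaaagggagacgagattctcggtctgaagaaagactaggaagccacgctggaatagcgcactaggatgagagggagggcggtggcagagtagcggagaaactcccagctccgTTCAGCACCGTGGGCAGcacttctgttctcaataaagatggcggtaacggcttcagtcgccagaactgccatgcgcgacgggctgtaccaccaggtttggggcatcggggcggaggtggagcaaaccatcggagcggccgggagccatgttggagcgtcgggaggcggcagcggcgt
Syn1: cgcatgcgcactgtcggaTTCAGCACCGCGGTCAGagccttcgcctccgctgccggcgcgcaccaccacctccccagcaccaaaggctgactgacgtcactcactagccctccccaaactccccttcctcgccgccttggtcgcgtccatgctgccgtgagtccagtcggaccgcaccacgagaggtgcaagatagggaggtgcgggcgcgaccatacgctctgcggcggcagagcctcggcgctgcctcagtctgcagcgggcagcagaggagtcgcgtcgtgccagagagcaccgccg

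Within the first 300 bases of annotated transcripts, a match was found in 2.36% of 21877 coding genes and an exact one in 0.288%. Here 2 of the 10 members held one, Stmn3 in its 5′ UTR (chr2:181314205-181314221) and Syp in its coding part (chrX:7638737-7638753), each with 1 mismatch. Of the 21 further targets 8 did, a share that follows from their choice as known targets. The member sites are printed beside those of Rundc3a (chr11:102393452-102393468) and Vgf (chr5:137030278-137030294), which rose in G9Gl cells. Sites of Grin1 (chr2:25319018-25319034), which was lower there without being called, and of Chrnb2 (chr3:89764458-89764474) are printed as well. Chrnb2 was not tested, with means of 0.106 CPM in WT, 0.172 in S1S2 and 0.197 in G9Gl. Sites are written along the consensus, and capitals mark the letters that it allows at its fixed positions.
Stmn3: gcCAGCACCatGGCCAG
Syp: tcCAGCACCgtGGACAG
Rundc3a: cTCAGCACCtcGGAGAG
Vgf: tTCAGCACgctGGACAG
Grin1: tTCAGCACCtcGGACAG
Chrnb2: tTCAGCACCacGGACAG

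Read beside the values, an exact match occurred in Rundc3a, which was called higher in G9Gl, and in Bdnf, which was higher there under the fold limit. It also occurred in Grin1, which was lower in both mutants without being called, and in Chrnb2 and Sez6, which were not tested. Whether a match bears on a rise was not tested. Stmn3 and Syp both carry T2C relative to the consensus, with positions counted from 1 at its 5′ end, and stayed near zero. Scn2a held no match in the windows or transcripts searched, and L1cam held 1, with a mismatch, further down its coding part. Among the members Nefm likewise held 1 in its coding part, with G17T, and had no count in any library. A match is a description of letters and no proof of binding. Sequence outside the promoter windows and transcripts, such as most intron sequence, was not searched, so the lack of a match does not mean the lack of a site.

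Finally, relatives of the neuronal members were examined, 19 genes of the stathmin, SNAP, synaptophysin, tubulin, intermediate filament and GAP43-like families, to see whether differences were shared by families. In this list 15 were tested, and 3 were called in S1S2 relative to WT, 4 in G9Gl relative to WT and 2 between the mutants, 15 genes being too few to set these counts apart from the 9.0%, 10.2% and 13.1% called over all genes. Several broadly expressed relatives stayed near their WT level. Stmn1, Snap23, Sypl, Tubb5 and Tubb4b differed from WT by no more than 0.27 on the log2 scale in either mutant. Of these small differences, some passed the adjusted p alone: Stmn1 in G9Gl (-0.27, adjusted p = 7.15e-04), and Tubb4b and Tubb5 in S1S2 (0.25 and 0.15, adjusted p = 2.86e-04 and 0.00686). The neurofilament relatives Nefh and Ina had no count in any library, as Nefm.

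Stmn4, a stathmin of neurons, rose in both mutants. It had 6, 6 and 0 counts in WT, 40, 36 and 32 in S1S2, and 55, 89 and 76 in G9Gl. Its rise over WT on the log2 scale was 3.54 in S1S2 (SE 0.457, adjusted p = 5.54e-06). For G9Gl it was 4.26 (SE 0.413, adjusted p = 1.61e-07), and the mutants differed by 0.72 (adjusted p = 0.0388). Prph, the peripheral neuron intermediate filament peripherin, fell in both. Its counts were 129, 132 and 163 in WT, 44, 59 and 52 in S1S2, and 4, 9 and 14 in G9Gl, with log2 fold changes of -1.04 (adjusted p = 2.06e-04) and -3.85 (adjusted p = 1.26e-09). The S1S2 value came under the 2-fold limit without WT replicate 3 (-0.92) or S1S2 replicate 1 (-0.98). Basp1, a relative of Gap43 in function, rose by 1.06 in G9Gl (adjusted p = 2.17e-12), where Gap43 was lower. Marcks, a further membrane-bound growth cone protein, fell in S1S2 (-1.42, adjusted p = 6.51e-12), where Gap43 rose. Tubb2a rose by 1.01 in G9Gl (adjusted p = 1.29e-10), but 43.2% of its 75-base stretches occur in Tubb2b or a pseudogene, and the 2 genes are hard to tell apart. This call too was at the limit and was lost without WT replicate 2 (0.97), without G9Gl replicate 2 (0.98) and without a composition factor (0.98).

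**Figure D4:**
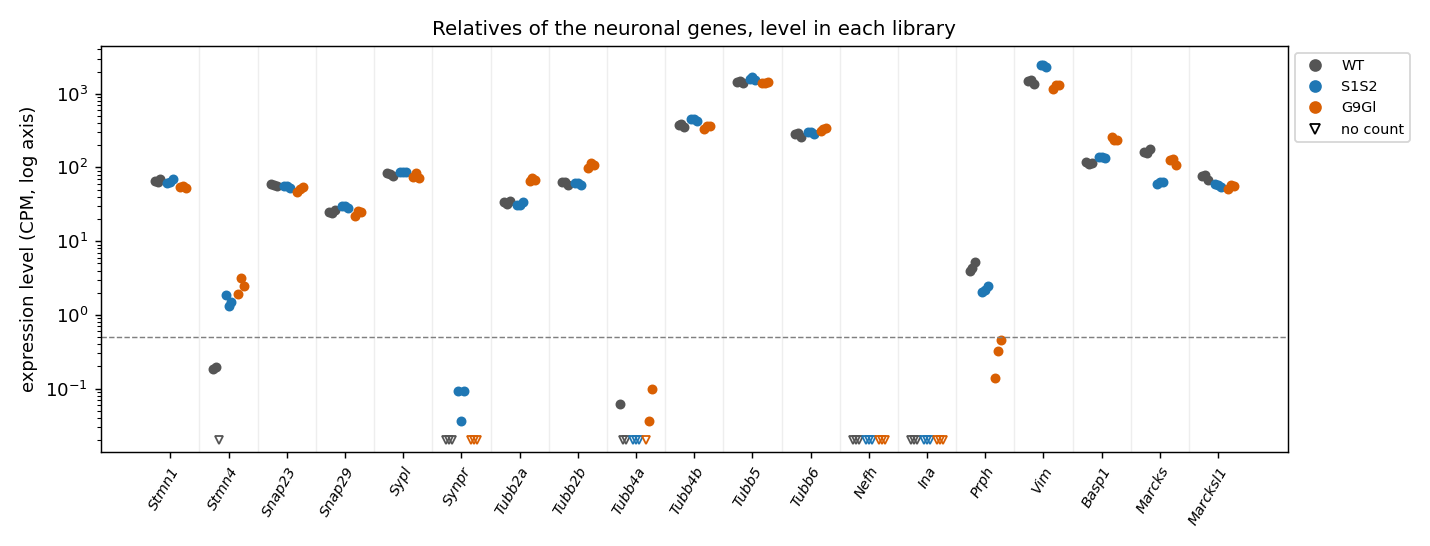
Expression level (CPM, logarithmic vertical axis) of the 19 relatives in each of the 9 libraries, coloured by genotype, with open triangles for libraries without a count and a dashed line at 0.5 CPM. Stmn4 is higher and Prph lower in all libraries of both mutants than in WT, and Nefh and Ina are at 0.

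Genes with the most similar profile were sought for Rest, Stmn2 and Gap43 by the Pearson correlation of log2 CPM over the 9 libraries. For Rest these were Alg8 (r = 0.985), Parp10 (0.983) and Parp8 (0.979). For Stmn2 they included Sh3rf2 (0.998) and Lamb3 (0.997), and for Gap43 they were Capn1 (0.999), Zfp37 (0.998) and Gsta4 (0.997). As the libraries form 3 clusters by genotype, such values rest on the differences between 3 group means and are given as a description.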

How the data were processed

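Total RNA of 9 MEF libraries was sequenced from stranded, rRNA-depleted libraries. The authors deposited raw counts per Ensembl gene, whole numbers without normalization. Per the study's methods reads were trimmed, aligned with settings recommended for TEtranscripts and counted with it; the submitters' processing notes name STAR 2.5.2b, GRCm38 and DESeq2. Annotation release and strand setting are not given in the sources used here. How multiply aligned reads were shared among copies is not stated.

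Symbols, positions and exon lengths came from GENCODE M21 (47310 identifiers matched, 627 not). In R 4.3.3, edgeR 4.0.16 was run with filterByExpr (at least 0.352 CPM in 3 libraries), TMM and the quasi-likelihood F test, all 9 libraries in a single fit without covariates, and Benjamini-Hochberg adjustment over 15540 genes. Calls needed a fold of at least 2 besides an adjusted p no higher than 0.01. CPM used TMM-scaled totals, and RPKM divided by union exon length. Ratios against 1 to 3 counts per library carry exact binomial intervals of 95%, and bounds against 0 used 3 counts in the shallowest library. Reads are not independent molecules, so intervals and floors cover counting error only. On simulated data of 15540 genes, 100% of genes with 2.5-, 4- and 0.25-fold changes and 0% with 1.5-fold changes were called in each comparison. The 1.5-fold changes lay under the fold limit of 2 by construction. All changed genes had a mean above 1 CPM and all genes shared 1 dispersion, so recovery of near-silent genes was not tested. Replicates differed beyond counting noise (chi-square per degree of freedom 2.57 to 23.5). Sharing of 75-base stretches was counted over annotated transcripts in Python 3.11.15.

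Members and lists were chosen with earlier results of these data known. Named were all members, up to 6 called genes per list and comparison with WT, and the 3 most similar genes of Rest and each called member (mean of at least 1 CPM); further list genes were named after their values were seen. A neuron marker, left out of its list's counts and sums, and a gene similar to Stmn2 are not reported here. Alternatives were DESeq2 1.42.0, other scalings, filters and thresholds, a fit of the compared libraries, a block for the replicate number, and fits without 1 library each. Repeats and the authors' other data were not analysed here.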

Additional observations from a re-analysis of the deposited data

Results flagged for a closer look

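The difference of each mutant from WT was compared between the mutants, which equals the comparison of G9Gl with S1S2. The values that follow are log2 fold changes of G9Gl against S1S2 that passed the adjusted p and the 2-fold limit, and thus mark genes whose differences from WT were unlike in the 2 mutant lines by that test. Line and mutation cannot be told apart. Among the members these were Gap43 (-3.39) and Stmn2 (9.16). The Stmn2 value is a fitted one against 0 counts and gives no size. Stmn2, Scn2a and Celsr3 were tested through their G9Gl libraries alone, so that being tested already required a high level there. Among further REST targets they were Syn1 (2.96), Scn2a (4.01), L1cam (3.18), Celsr3 (4.64), Chrm4 (1.35) and Rundc3a (2.86). Among the relatives they were Tubb2a (1.09) and Prph (-2.81), and among the neuron markers Map2 (1.90), which was lost without S1S2 replicate 1 or 2 (adjusted p = 0.0131 and 0.0143). Groups of 3 libraries are too small for a search for single deviating libraries.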

How the results depend on the processing

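Over all alternatives, 202 refitted differences of single members kept their direction and call, and 4 changed sign. Left-out libraries moved Rcor1 in S1S2 against WT between -0.0403 and 0.0179, and Rest between -0.0467 and 0.00147; neither was called in any of these fits. The Gap43 call in S1S2 held in every alternative. The Stmn2 call in G9Gl was lost only where 10 counts were required in every library, which left Stmn2 untested. Members called in G9Gl against WT then numbered 0, with DESeq2 2 (Snap25 added), without a filter 3 (Snap25 and Nefl added), and with single libraries left out 1 to 2. In G9Gl against S1S2 they numbered 1 with that minimum, 4 without a filter and 2 to 4 with libraries left out, 4 being reached without S1S2 replicate 2.

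Further targets called in S1S2 against WT numbered 1 with DESeq2, without a composition factor, with the 10-count minimum, with only the compared libraries and with the replicate block, 0 with glmTreat, and 1 to 2 with libraries left out (1 without WT replicate 1, 2 or 3 or S1S2 replicate 2). The 10-count minimum left 3 targets in G9Gl against WT, and of the relatives 1 in S1S2, 2 in G9Gl and 1 between the mutants. With glmTreat, which tests against the 2-fold limit itself, 2 relatives were called in G9Gl against WT (Basp1 and Tubb2a lost) and 1 in G9Gl against S1S2, and the calls of Prph in S1S2 and of Vgf in G9Gl against WT were lost as well.

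Without a fold limit, an adjusted p of at most 0.01 gave 2, 4 and 5 members, 9, 10 and 6 cofactors and 9, 10 and 11 relatives in S1S2, in G9Gl and between the mutants, and 5 targets in S1S2. A limit of 0.05 gave 3, 4 and 5 members, 12, 13 and 7 cofactors and 9, 11 and 13 relatives, and 7 and 10 targets in S1S2 and G9Gl against WT. Except where the construction shows it, the cause was not tested.

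No clear pairing of the libraries by replicate number was seen, though 3 libraries per genotype are too few to settle it. Deviations of same-numbered libraries correlated by 0.0480, 0.0426 and -0.0543 on average in the 3 comparisons, and 2, 2 and 0 of 3 libraries correlated best with their own number. As a block the number altered no other count by over 1.5 times. Depth limits the near-silent members, for which 3 counts equal 0.0923 to 0.141 CPM.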

Other observations

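Among the neuron markers, Syt1, the calcium sensor of vesicle release, had 1, 6 and 3 counts in G9Gl and 0 in all other libraries, which left it untested. Map2, a dendritic microtubule protein gene, had 15, 19 and 42 counts in WT, 4, 6 and 7 in S1S2, and 29, 29 and 21 in G9Gl. It fell by 1.73 on the log2 scale in S1S2 (adjusted p = 0.00561), a call lost without WT replicate 3 or S1S2 replicate 1 or 2 (adjusted p from 0.0266 to 0.0428), and the difference of G9Gl from WT was 0.17 (adjusted p = 0.733).

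Markers of other cell types gave these values. Of the 10 markers of glia and neural progenitors, Aqp4 and Olig2 had no count, and the summed level (273 to 357 CPM in WT, 760 to 772 in S1S2, 476 to 587 in G9Gl) was nearly all from Nes, an intermediate filament gene that rose in S1S2 by 1.29 on the log2 scale. The 4 neuroendocrine markers had 1 count in all, in a G9Gl library. The epithelial keratin gene Krt8 rose in S1S2 (4, 3 and 6 counts in WT against 104, 113 and 109), and Krt18, which was not tested, had 0, 8 and 3 counts in S1S2 and none in other libraries, with a call in the fit without a filter (adjusted p = 0.00842). Epcam and Cdh1 had at most 10 counts per library. Among endothelial markers, Kdr rose in S1S2 (0, 0 and 2 counts in WT against 28, 28 and 29) and Cdh5 in G9Gl (0, 0 and 0 against 43, 14 and 31). Of the 3 haematopoietic markers only Cd68 was tested, and it was not called. Csf1r had 1, 1 and 1 counts in WT, 0, 1 and 0 in S1S2, and 3, 10 and 8 in G9Gl, which was 7.55 times the WT level (95% counting interval 2.25 to 39.5). Ptprc had 2, 2 and 4 counts in G9Gl and none in other libraries. Their part in the G9Gl rises of neuronal genes was not tested.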
